A study of Ovis aries with 10 samples.

Results

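The carnitine shuttle carries long-chain fatty acids into mitochondria, and 3 of its genes were measured in the left ventricle of fetal sheep: CPT1A, CPT1B and SLC25A20. They were taken by name, as every non-control probe whose gene name, accession or description was that of 1 of these genes. This gave 5 probes of 15008, printed in 9 spots per array. The 15008 probes carried 1017 gene names in all, and 0 further probes shared an accession with these 5.

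CPT1 sits in the outer mitochondrial membrane and joins long-chain acyl groups to carnitine, the step that limits how fast fatty acids enter for oxidation. It is inhibited by malonyl-CoA. CPT1A is the form typical of liver and CPT1B the form typical of adult heart and skeletal muscle. SLC25A20, the carnitine-acylcarnitine translocase, moves the product across the inner membrane in exchange for free carnitine. The fetal heart runs largely on glucose and lactate, and the rise of fatty acid oxidation around birth is among the best known steps of its maturation.

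All fetuses were singletons, and both groups of ewes were infused from about day 115 of pregnancy for about 25 days. The control ewes received vehicle, and the cortisol ewes cortisol at 1 mg/kg/day; it is the chief natural glucocorticoid in sheep. Each treatment group held 7 ewes, and the left ventricular free wall of 5 control and 5 cortisol fetuses was put on arrays, 1 array per fetus. Tissue of both groups was collected at 139 to 144 days, near term, soon after labour had begun, so the controls had also entered labour. Cortisol was given to the ewe, and the labels used here give no cortisol level in the fetuses.

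RNA was read on 1-colour Agilent sheep arrays, which measure how brightly labelled RNA binds to a printed 60-base probe. Levels are log2 of the spot intensity relative to the 75th percentile of the same array, which lay between 177.2 and 286.3 scanner units. The share of spots well above background was 63.5% to 73.2%, and 0 were saturated. Precision is limited by there being 5 arrays a group. The arrays lay on 2 slides, slide 1 with 3 control and 3 cortisol arrays and slide 2 with 2 of each. On cortisol replicate 4 an area of 1288 spots (8.47%) had lost signal. The free-text description of 9 samples names another muscle, the biceps femoris, whereas every title, source and tissue field names the left ventricle. Of 15 listed cardiac muscle genes only 3 had a named probe. These were MYH7, TPM1 and CRYAB, abundant in heart, at array percentiles 96.9 to 98.1, 99.6 to 99.9 and 99.6 to 99.8. Of 13 listed skeletal muscle genes 7 had a named probe, and they were divided. PYGM, the muscle glycogen phosphorylase (percentile 88.8 to 94.3), MYLPF, a fast myosin light chain (63.3 to 74.1), and TNNC2, the fast troponin C (58.6 to 68.6), stood well above background on 10 of 10 arrays and the myogenic factor MYOD1 on 6. On 0 of 10 arrays did the fast skeletal myosins MYH1 and MYH2 or the myogenic factor MYF5. No skeletal muscle array was analysed here, so these levels do not settle which muscle the 9 descriptions refer to.

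The probe sequences show what each measurement reads and how far the 2 probes of a gene are independent. They are copied from the array files, 5′ to 3′, with capitals for the bases that both probes of the gene share. Probe A_70_P051281 of CPT1A was printed in 5 spots, and the other 4 probes in 1 spot each.
CPT1A, probe A_70_P051282: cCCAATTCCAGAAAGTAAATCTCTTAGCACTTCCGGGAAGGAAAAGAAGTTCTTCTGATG
CPT1A, probe A_70_P051281: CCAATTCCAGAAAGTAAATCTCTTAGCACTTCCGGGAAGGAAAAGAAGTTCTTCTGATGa
CPT1B, probe A_70_P030107: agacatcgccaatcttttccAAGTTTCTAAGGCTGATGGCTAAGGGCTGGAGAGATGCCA
SLC25A20, probe A_70_P029431: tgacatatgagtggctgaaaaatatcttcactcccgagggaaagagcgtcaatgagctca
The 2 CPT1A probes share 59 of 60 bases, being shifted by 1 base, so they read nearly the same stretch of the transcript. The other CPT1B probe, A_70_P030106, begins at the capitals of the printed one and runs 20 bases further, sharing 40 bases with it. Probes of different genes of the shuttle matched at no more than 24 of 60 positions in their best ungapped alignment, with no shared run over 6 bases. GC content ranged from 40.0% to 55.0% over the 5 probes. How brightly a probe glows also depends on how well it binds, so the levels of different probes are not set against each other, and the data do not say which CPT1 form was the more abundant.

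All 90 spot values of the 5 probes (9 spots on 10 arrays) were well above background, and all 5 probes were tested. SLC25A20 had a processed signal, after background subtraction, of 23.9 to 69.9 scanner units, with a raw mean signal of 61.0 to 103.6 over a local background of 22.0 to 30.0. CPT1A had processed signals of 161.1 to 745.1 (probe A_70_P051282) and CPT1B of 1471.5 to 2483.2 (probe A_70_P030107).

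The comparison asks how these genes in the near-term fetal heart stood after prolonged cortisol infusion of the mother. Each of the 3 genes had a higher mean in the cortisol fetuses, 1.81-fold for CPT1A, 1.24-fold for CPT1B and 1.25-fold for SLC25A20. None of these differences passed the test, every adjusted p being 0.990 in limma, and the groups overlapped at all 5 probes. Part of the higher mean lay in 1 fetus, cortisol replicate 1, which was the highest of all 10 for every probe. Without it the log2 difference was 0.55 for CPT1A (0.86 with it), 0.21 for CPT1B (0.31) and 0.10 for SLC25A20 (0.32).

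CPT1A, the liver form, had levels of -0.64, -0.22, 0.48, -0.17 and -0.29 in control replicates 1 to 5 (probe A_70_P051282). In cortisol replicates 1 to 5 its levels were 1.93, -0.13, 0.03, 0.62 and 1.00. Cortisol replicates 1, 4 and 5 lay above every control, while replicates 2 and 3 lay within the control range and control replicate 3 lay above them. The control mean was -0.17 ± 0.41 (SD, n = 5) and the cortisol mean 0.69 ± 0.83 (SD, n = 5). The difference was 0.86 ± 0.37 (SE) on the log2 scale, with a 95% interval from 0.05 to 1.67, or 1.03- to 3.18-fold. It had an unadjusted p of 0.0396 and an adjusted p of 0.990 in limma, and 5 of 5 cortisol arrays were above the control mean. It dropped to 0.55 ± 0.28 (SE) when cortisol replicate 1 was left out.

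The 5-spot probe of CPT1A gives the error between repeat spots of 1 array. Its array means were -0.76, -0.33, 0.40, -0.24 and -0.38 in controls and 1.88, -0.27, -0.02, 0.54 and 1.00 with cortisol. The SD between its spots on 1 array was 0.06 to 0.17, with a median of 0.10, against an SD of 0.42 between control arrays and 0.86 between cortisol arrays. The SD between arrays also holds labelling, hybridisation and scaling error, which repeat spots of 1 array do not measure. The fit of this probe gave 0.89 ± 0.38 (SE), with an unadjusted p of 0.0391 and an adjusted p of 0.990 in limma. At this probe 4 of 5 cortisol arrays were above the control mean, replicate 2 being just below it. Of the 90 spot values 1 was left out, a CPT1A spot of cortisol replicate 4 marked as an outlier by the scanner software, inside the area of lost signal. It read 79.5 scanner units, while the other 4 spots of the probe on that array read 234.1 to 301.3.

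**Figure D1:**
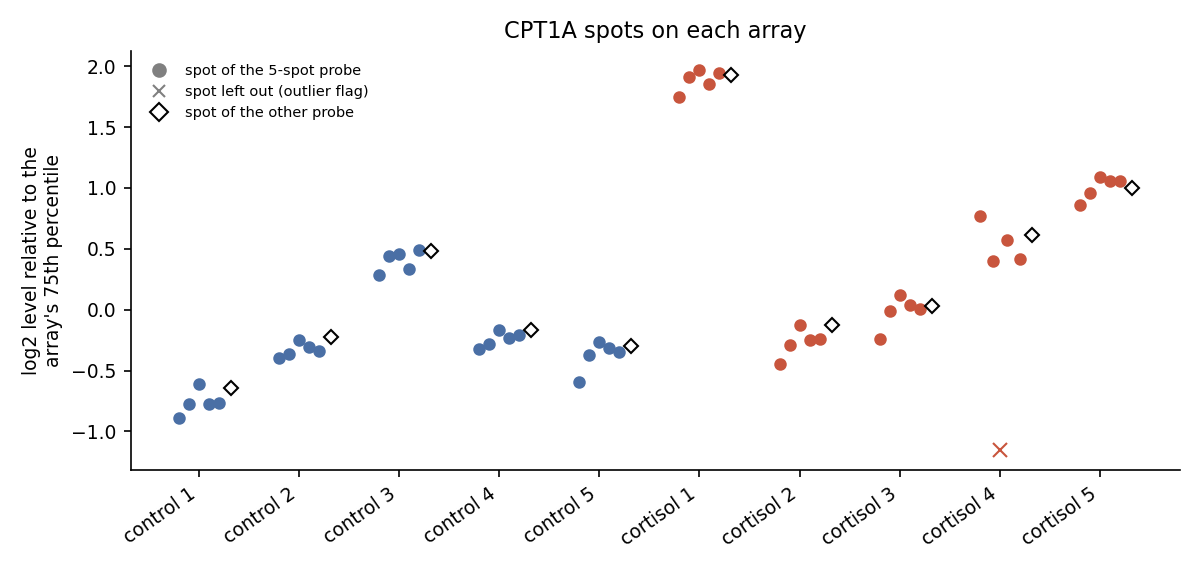
Each circle is 1 spot of the 5-spot CPT1A probe on the array named on the horizontal axis (blue control, red cortisol), each open diamond the spot of the other CPT1A probe, and the cross a spot left out; the vertical axis is the log2 level relative to the array's 75th percentile. Spots of 1 array lie close together (SD 0.06 to 0.17) while arrays differ widely, with cortisol replicate 1 on top and the cross at -1.16.

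CPT1B, the muscle form, had levels of 3.04, 3.04, 2.83, 3.06 and 2.82 in control replicates 1 to 5 (probe A_70_P030107). In cortisol replicates 1 to 5 its levels were 3.67, 2.99, 3.25, 3.17 and 3.28. Cortisol replicates 1, 3, 4 and 5 lay above every control and cortisol replicate 2 lay within the control range. The means were 2.96 ± 0.12 (SD, n = 5) and 3.27 ± 0.25 (SD, n = 5). The difference was 0.31 ± 0.13 (SE) in log2, with a 95% interval from 0.02 to 0.60, or 1.01- to 1.52-fold, an unadjusted p of 0.0378 and an adjusted p of 0.990 in limma. All 5 of 5 cortisol arrays were above the control mean. The difference was 0.21 ± 0.11 (SE) when cortisol replicate 1 was left out.

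The other CPT1B probe gave the same difference with a wider error. It read 2.99, 3.01, 2.85, 3.00 and 2.86 in controls and 3.68, 3.03, 3.24, 2.88 and 3.42 with cortisol. Here cortisol replicate 4 fell among the controls and replicate 2 lay just above them. The fit gave 0.31 ± 0.15 (SE), with an unadjusted p of 0.0635 in limma, and 4 of 5 cortisol arrays were above the control mean. Across the 10 arrays the 2 CPT1B probes followed each other with r = 0.912 and differed by up to 0.27 once each was centred, against r = 0.999 and up to 0.08 for the 2 nearly identical CPT1A probes. These r values are descriptions of probes that share bases and arrays.

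SLC25A20, the carrier, had levels of -2.84, -2.86, -2.35, -2.77 and -2.60 in control replicates 1 to 5. In cortisol replicates 1 to 5 its levels were -1.48, -2.95, -2.58, -2.27 and -2.56. Cortisol replicates 1 and 4 lay above every control, replicates 3 and 5 within the control range, and replicate 2 was the lowest of all 10. The means were -2.69 ± 0.21 (SD, n = 5) and -2.37 ± 0.55 (SD, n = 5). The difference was 0.32 ± 0.24 (SE), with a 95% interval from -0.22 to 0.85, or 0.86- to 1.80-fold, and an unadjusted p of 0.217 and adjusted p of 0.990 in limma. It was 0.10 ± 0.16 (SE) when cortisol replicate 1 was left out. A fall to 0.86-fold and a rise to 1.80-fold both lie within the interval.

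**Figure D2:**
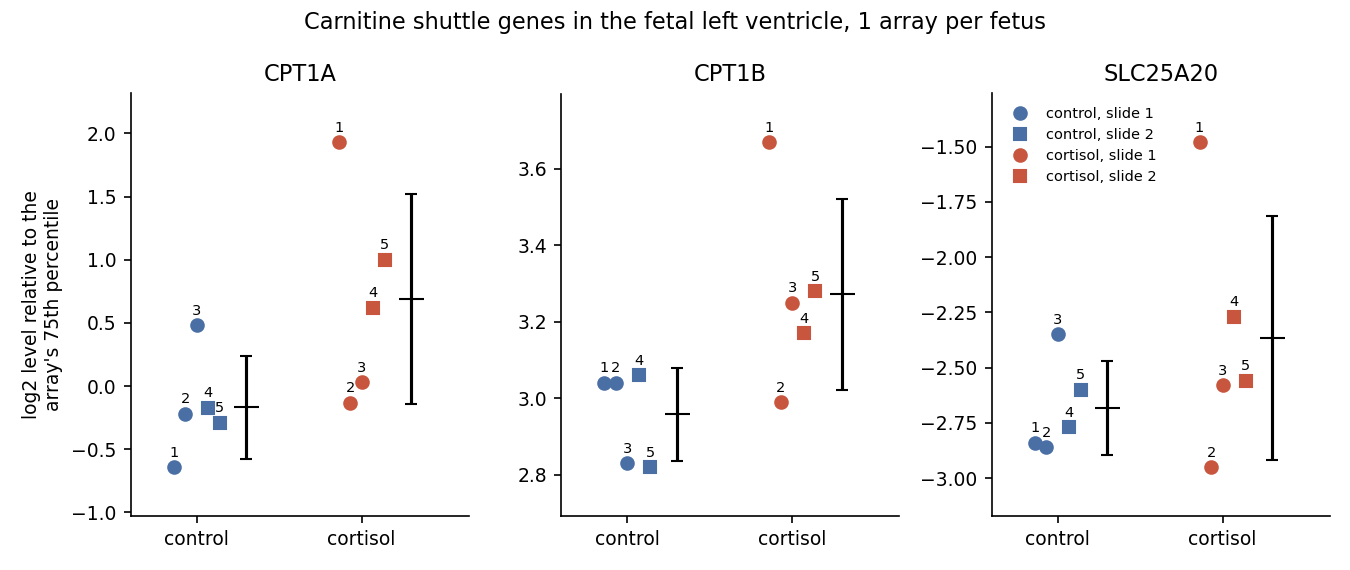
Each point is 1 fetus, numbered by replicate, with circles for slide 1 and squares for slide 2 (blue control, red cortisol); the vertical axes give the log2 level relative to the array's 75th percentile for the brightest probe of each gene, on a separate scale per gene, and the black mark beside each group is its mean with SD bars (n = 5). Cortisol replicate 1 is the highest point for all 3 genes and cortisol replicate 2 lies among or below the controls.

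Differences as large as those of the shuttle probes were also found elsewhere on the array, though few reached that of CPT1A. At an adjusted p of 0.05 limma called 0 (0%) of 10265 probes tested, while 333 (3.24%) had an unadjusted p under 0.05. A difference above 0, found at all 5 shuttle probes, was found at 48.8% of all probes. Of the shuttle probes, both CPT1A probes and 1 of the 2 CPT1B probes had an unadjusted p under 0.05 with a higher mean in cortisol, where 164 of all probes (1.60%) did, beside 169 with a lower mean. That split depended on the values used: it was 681 higher and 67 lower with the normexp background correction, 202 and 129 with median scaling, and 186 and 79 in the authors' deposited value table. It leaned the other way with array weights (149 higher and 268 lower), without cortisol replicate 4 (169 and 300) and on slide 1 alone (206 and 258). The 2 CPT1A probes are nearly 1 measurement, so the count of 3 probes stands for 2 genes. A difference of at least 0.3 was found at 5.90% of all probes. This mark lies just under the smallest shuttle difference, 0.31, so that all 5 shuttle probes reach it is no result of its own. A difference at least as large as that of CPT1A was found at 42 probes (0.409%). The groups did not overlap at 0.838% of all probes, with cortisol the higher at 0.360%, and at 0 of the 5 shuttle probes.

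The spread between fetuses was wider with cortisol for each of the 5 probes. The SD with cortisol divided by that in controls was 2.03 and 2.04 for the CPT1A probes, 1.99 and 4.04 for the CPT1B probes and 2.59 for SLC25A20. The array as a whole was also more variable with cortisol: over 9368 tested probes with a value on every array this ratio had a median of 1.35, and it was at least 2 in 27.0%. With the area of lost signal left out, the median was 1.26 and the share 22.0%. Cortisol replicate 1, the highest array at every shuttle probe, is part of these cortisol SDs. Without it, the cortisol levels of CPT1A ran from -0.13 to 1.00, against -0.64 to 0.48 in controls. Those of CPT1B ran from 2.99 to 3.28 (controls 2.82 to 3.06, probe A_70_P030107) and those of SLC25A20 from -2.95 to -2.27 (controls -2.86 to -2.35). The ratio was not computed without that array, and no test was made of it at the shuttle probes.

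The differences held their direction within each slide. On slide 1 (3 against 3) CPT1A had 0.74 ± 0.57 (SE), CPT1B 0.33 ± 0.19 (SE) and SLC25A20 0.35 ± 0.37 (SE). On slide 2 (2 against 2) they had 1.04 ± 0.24, 0.28 ± 0.22 and 0.27 ± 0.23 (SE). The difference in cortisol effect between slides had adjusted p values of 0.963, 0.985 and 0.989 in limma. Cortisol replicate 1 lay on slide 1, so the slide 2 values do not rest on it.

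**Figure D3:**
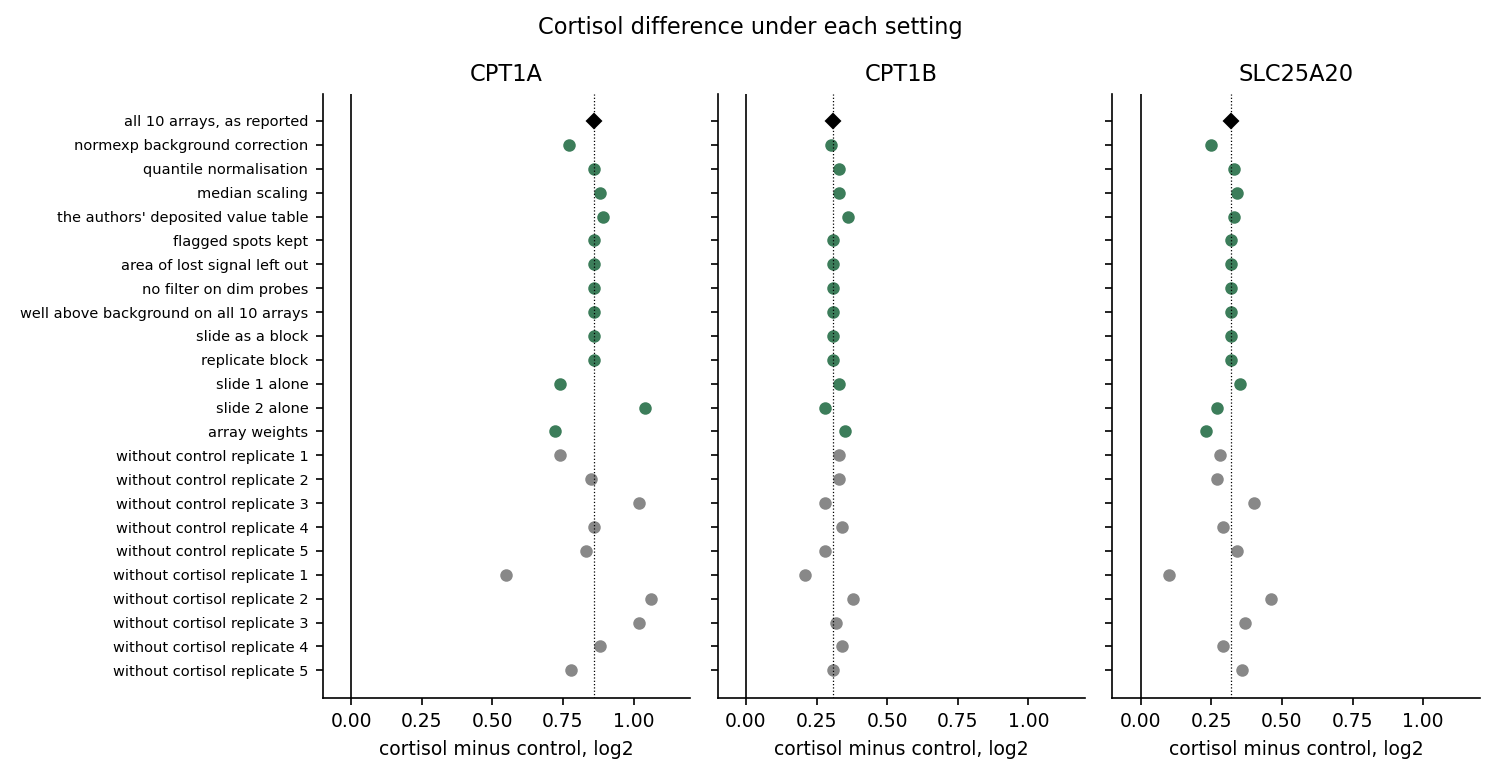
Each point is the cortisol minus control difference in log2 for 1 gene under the setting named at the left; the black diamond and dotted line mark the value from all 10 arrays, green points other processing, and grey points the fits that leave out 1 array. All points lie above 0, and the lowest of each gene is the 1 without cortisol replicate 1, at 0.55, 0.21 and 0.10.

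Because both CPT1 forms were measured on the same arrays, their balance could be followed within each fetus, although not their absolute ratio. The log2 difference CPT1A minus CPT1B was -3.68, -3.27, -2.34, -3.24 and -3.11 in control replicates 1 to 5. It was -1.74, -3.13, -3.22, -2.55 and -2.28 in cortisol replicates 1 to 5. Only the shift between groups can be read, since each value holds the binding of 2 probes. Cortisol replicates 1 and 5 lay above every control, and replicates 2, 3 and 4 within their range. The means were -3.13 ± 0.49 (SD, n = 5) and -2.58 ± 0.61 (SD, n = 5), a shift of 0.55 ± 0.35 (SE) or 1.46-fold towards the liver form, with 4 of 5 cortisol arrays above the control mean. An exact permutation test over all 252 splits gave a two-sided p of 0.159, where the smallest possible is 0.00794. A shift in the balance was not shown beyond the spread between fetuses.

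From fetus to fetus the correlation of the liver form with the carrier passed over all 10 arrays, but not without cortisol replicate 1. CPT1A and SLC25A20 had r = 0.89 over the 10 arrays (permutation p = 0.00199, 0.00597 adjusted over the 3 pairs) and Spearman rho = 0.78 (permutation p = 0.0104, adjusted 0.0313). Without cortisol replicates 1 and 5, the arrays farthest from the CPT1A median, r was 0.83 (n = 8, exact permutation p = 0.0123). Within slide 1, which holds cortisol replicate 1, r was 0.97 (n = 6, exact permutation p = 0.0111) and rho 0.77. With each group's mean taken off, and that array kept, r was 0.89. Leaving out cortisol replicate 1 alone gave r = 0.70, with an exact permutation p of 0.110 adjusted over the pairs. Leaving out cortisol replicate 5 alone raised r to 0.96. Control replicate 3, the highest control for CPT1A, was also the highest control for SLC25A20, as the levels above show.

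The correlations of the muscle form rested on 1 or 2 fetuses. CPT1A and CPT1B had r = 0.77 (permutation p = 0.0142, adjusted 0.0213) and rho = 0.68 (permutation p = 0.0342, adjusted 0.0513). Without cortisol replicates 1 and 5, r was 0.10 (n = 8, exact permutation p = 0.821), so the relation rests on those arrays. It was 0.41 without cortisol replicate 1 alone (exact permutation p adjusted over the pairs, 0.402) and 0.75 without cortisol replicate 5 alone (0.0564). Within slide 1 it was 0.74 (n = 6, exact permutation p = 0.133), with rho 0.26. With each group's mean taken off r was 0.62. Control replicate 3 was the highest control for CPT1A but, at 2.83, among the lowest for CPT1B. CPT1B and SLC25A20 had r = 0.69 (permutation p = 0.0462, adjusted 0.0462) and rho = 0.50 (permutation p = 0.145, adjusted 0.145). Without cortisol replicate 1 and control replicate 5, r was 0.12 (n = 8, exact permutation p = 0.781), and it was 0.06 without cortisol replicate 1 alone. It no longer passed in 8 of the 10 fits that leave out 1 array, all but those without control replicate 3 or 5. Within slide 1 it was 0.77 (n = 6, exact permutation p = 0.111), with rho 0.37. With each group's mean taken off r was 0.63. Slide 2, with 4 arrays, was too small for a correlation. Whether the 3 correlations differ from each other was not tested.

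**Figure D4:**
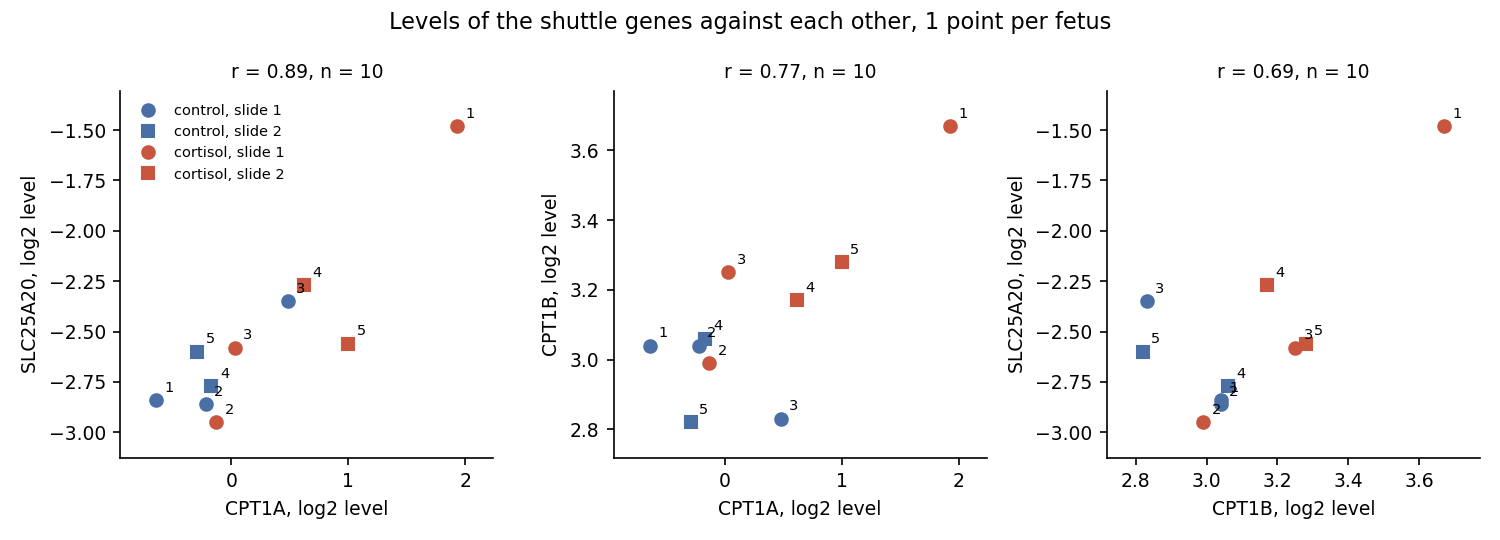
Each point is 1 fetus, numbered by replicate, with circles for slide 1 and squares for slide 2 (blue control, red cortisol); axes are log2 levels relative to the array's 75th percentile, and r is Pearson's over the 10 arrays. From left to right r was 0.89, 0.77 and 0.69, and in every panel cortisol replicate 1 lies apart at the top right. Without that array r was 0.70, 0.41 and 0.06.

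Likeness to each gene was measured as Pearson's r of levels over the same 10 arrays, with the same scaling and processing, and is given as a description. The median r with CPT1A over 9366 other probes was -0.04, and 1.08% had r above 0.7. SLC25A20 ranked first for CPT1A among 606 named genes, and 4 among all 9366 probes. CPT1A in turn ranked first of the named genes for SLC25A20 and 3 for CPT1B. After SLC25A20, the named genes most like CPT1A were BCL2, an inhibitor of apoptosis (r = 0.82), the cytochrome P450 CYP2J (0.79), TXNIP, a thioredoxin-binding protein that restrains glucose uptake (0.79), and the paraoxonase PON2 (0.78). These were 0.77, 0.66, 0.80 and 0.69 without cortisol replicate 1. The CYP2J probe was dim, at levels of -4.37 to -3.28. The least like were TM7SF2, a sterol reductase, at -0.86 and FGF18, a fibroblast growth factor, at -0.85. Without cortisol replicate 1 these 2 were at -0.86 and -0.75.

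The genes most like SLC25A20 after CPT1A were NRF1 (0.87), CNN1 (0.82), PSPH, an enzyme of serine synthesis (0.79), and SARS, the seryl-tRNA synthetase (0.79). NRF1 here is named from an expressed sequence tag, and the symbol usually stands for nuclear respiratory factor 1, a regulator of mitochondrial genes. Without cortisol replicate 1 the r with NRF1 was 0.86, whereas those with CNN1, PSPH and SARS were 0.28, 0.24 and 0.18. The NRF1 probe was dim, at levels of -4.24 to -2.96, and well above background on 9 of 10 arrays. The PSPH probe was also dim, at -4.82 to -2.19. The least like were FGF18 (-0.74) and the lymphocyte receptor CD5 (-0.72), at -0.51 and -0.09 without cortisol replicate 1. The CD5 probe was dim, at levels of -6.16 to -3.50. For CPT1B the most like were CNN1 (0.91), the growth factor receptor IGF1R (0.80), CPT1A (0.77), the matrix protease MMP14 (0.74) and SARS (0.73). They had, without cortisol replicate 1, 0.76, 0.60, 0.41, 0.51 and 0.17. The least like CPT1B were ATP5MC2, a subunit of mitochondrial ATP synthase (-0.75), and the cyclophilin PPIB (-0.72), at -0.55 and -0.53 without that array. Both had their lowest level on cortisol replicate 1 (7.75 and 3.12), and ATP5MC2 ranged only from 7.75 to 8.03.

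CNN1 is calponin 1, a marker of smooth muscle, so the smooth muscle list is given beside CPT1B. Its levels were 2.97, 2.36, 1.92, 2.83 and 2.62 in control replicates 1 to 5 and 5.60, 2.34, 2.94, 3.52 and 3.37 in cortisol replicates 1 to 5. Cortisol replicate 1 stood far above the other 9 arrays. CNN1 had a difference of 1.01 ± 0.51 (SE) with an unadjusted p of 0.0735 in limma, and 0.50 without that array. MYLK, the myosin light chain kinase, had 0.32 ± 0.18 (SE). These were the 2 of 6 listed smooth muscle genes with a named probe, neither passed (adjusted p = 0.990 in limma), and ACTA2, MYH11, TAGLN and SMTN had none. The mean level of the list was 2.19 to 2.68 over control arrays and 2.16 to 4.09 over cortisol arrays, 4.09 being cortisol replicate 1. That array also had the lowest level of HBB, a haemoglobin chain of red cells (1.99, against 3.18 to 6.58 on the others). The mean of the cardiac muscle list was lowest there too, at 7.27 against 7.38 to 7.68. So were those of the leukocyte and liver cell lists, at -3.24 and -3.45. The skeletal muscle, fat cell, endothelial and fibroblast lists lay within the range of the other arrays. In bulk tissue, more cells of a type and more RNA per cell cannot be told apart, and the part of cell makeup in the shuttle genes was not tested.

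The rest of the pathway was thinly covered by named probes. Of 73 other genes listed for fatty acid use, 12 had a named probe and 10 were tested: 7 had a higher mean with cortisol and 3 a lower one, and 0 passed (adjusted p 0.990 to 0.999 in limma), with 0 under an unadjusted 0.05. Their median difference was 0.15, against 0.00 over all probes tested, of which 5012 were higher and 5253 lower. No named probe was found for the 9 other genes of the shuttle and of carnitine supply, among them CPT2, which releases the acyl group inside the mitochondrion, nor for the 24 listed genes of beta oxidation. Those steps were not analysed here.

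Of the control of CPT1 by malonyl-CoA, 2 of 9 listed genes had a probe. PRKAA2, a catalytic subunit of AMP-activated kinase, which lowers malonyl-CoA, had a control mean of 0.81 ± 0.26 (SD, n = 5) and a cortisol mean of 0.92 ± 0.21 (SD, n = 5), a difference of 0.11 ± 0.15 (SE). ACACA, which makes malonyl-CoA, was well above background on at most 1 of 10 arrays and was not tested. Of uptake and activation, 3 of 16 listed genes were measured, all with a higher mean and wide errors. FABP4 and FABP5, fatty acid binding proteins, had 0.85 ± 0.96 and 0.70 ± 0.50 (SE), and LPL, which frees fatty acids from blood lipids, had 0.19 ± 0.17 (SE). The FABP4 difference was 0.33 when cortisol replicate 1 was left out. FABP4 is also a fat cell marker. The fat cell list had 4 of 10 genes tested, with a mean level of -3.40 to -0.63 over controls and -3.28 to -1.17 over cortisol arrays, so the groups overlapped there. Its genes PLIN1, LEP and UCP1 had -0.21 ± 0.14, 0.12 ± 0.15 and 0.28 ± 1.16 (SE). ADRB3 was well above background on 0 of 10 arrays.

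Regulators went both ways. NRF1 had 0.24 ± 0.22 (SE), and 0.11 without cortisol replicate 1, and PPARGC1A, a coactivator of mitochondrial genes, -0.19 ± 0.24 (SE), and -0.08 without that array. PPARG, a nuclear receptor of lipid storage, had 0.31 ± 0.44 (SE), 0.58 with the area of lost signal left out, 0.12 with normexp and 0.18 without cortisol replicate 1. NR3C1, the glucocorticoid receptor, had -0.58 ± 0.62 (SE) and turned to 0.12 without that area, in which its spot on cortisol replicate 4 lay. PPARA, the receptor through which fatty acids induce CPT1, and NR3C2, the mineralocorticoid receptor, had -0.07 ± 0.14 and 0.01 ± 0.15 (SE), and these 2 were named after their values were seen. UCP3, a mitochondrial uncoupling protein of muscle, was well above background on 0 of 10 arrays. No test was made between genes.

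**Figure D5:**
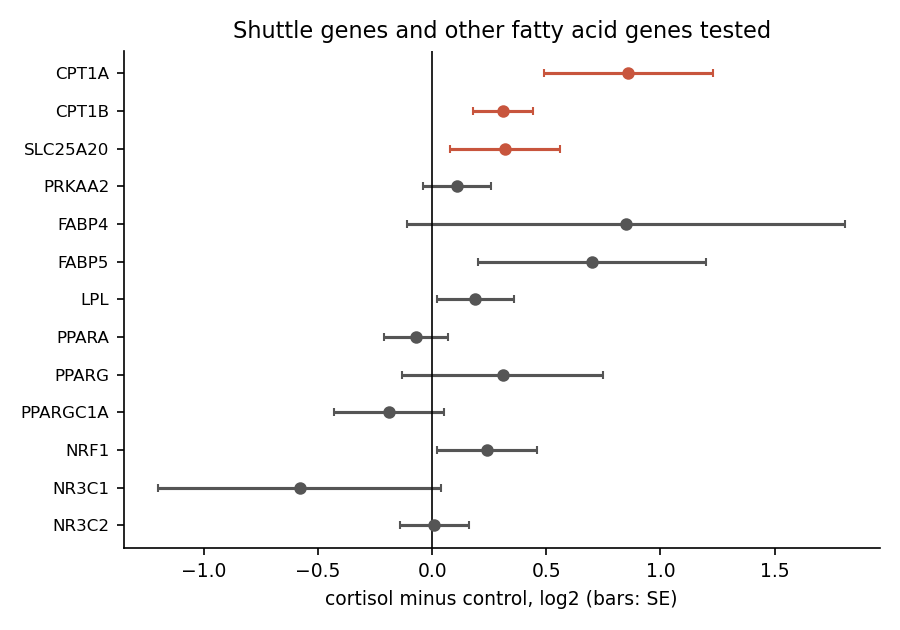
Points are cortisol minus control differences in log2 with bars of 1 SE (limma, 5 arrays a group), red for the 3 shuttle genes and grey for the 10 other fatty acid genes tested. CPT1A (0.86), FABP4 (0.85) and FABP5 (0.70) lie farthest to the right, the FABP bars being the wider, and NR3C1 (-0.58) holds a spot in the area of lost signal.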

How the data were processed

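Gene expression was measured on 10 1-colour Agilent arrays. The submitters' processing notes name Agilent Feature Extraction, version 10.1.1.1. The deposited intensity of each spot is background-subtracted and detrended per the file headers, and not normalised between arrays; the raw mean and local background intensity are deposited beside it. The authors' deposited value table holds log2 values, as their range shows: it keeps the order of median intensity minus local background (Spearman 1.0), and its array medians lie at 5.77 to 5.79. How it was made is not given in the sources used here.

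Control spots (536 of 15744) and spots marked non-uniform, outlying or not found (520 to 1187 per array) were left out. The log2 intensity minus the array's 75th percentile was averaged over a probe's spots. The 10265 probes well above background on at least 5 of 10 arrays were tested with limma 3.58.1 in R 4.3.3 (two-sided, no covariate, Benjamini-Hochberg, threshold 0.05). The code was tested on simulated data. The balance of CPT1A and CPT1B was tested by exact permutation, and correlations by permutation of pairings (100000 draws over 10 arrays), both two-sided. For genes with several probes, the probe of highest mean level was used.

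Of all probes 1656 carried a gene name, 48 of them through older names updated by hand after the files were seen; 13352 carried none. No genome was used, so no positions in the genome are given.

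The genes and lists were chosen with earlier results of these data known. Named genes are the shuttle genes, every measured gene of a pathway list (the 4 of smallest p in longer lists), the 5 named genes most and the 2 least like each shuttle gene, and up to 4 genes per marker list by level. PPARA, NR3C2, UCP3, MYH1, MYH2, MYF5 and ADRB3 fell outside this rule and were named after their values were seen. The area of lost signal on 1 array is where spots within 8 rows and 4 columns, given 10 or more bright ones, had a median over 0.75 log2 below that of the other arrays. The alternatives were normexp (offset 50), quantile and median scaling, the authors' table, other filters, flags kept, that area left out, a block for slide or for replicate number, array weights, the slides taken singly, and each array left out. The other probe of CPT1A or CPT1B was added as an alternative after seeing the data.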

Additional observations from a re-analysis of the deposited data

Results flagged for a closer look

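Of 32 groups of values examined for an array standing apart (the shuttle probes, their balance and the other fatty acid genes, in each treatment group), 2 had one, and about 1 in 20 groups would by chance. LPL on cortisol replicate 3 was at 3.98, while the other 4 cortisol arrays were at 3.29 to 3.48. NR3C1 on cortisol replicate 4 was at -3.36, while the other 4 were at -0.16 to 0.42, and that spot lay in the area of lost signal. No shuttle probe had such an array in either group.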

How the results depend on the processing

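The differences of CPT1A, CPT1B and SLC25A20 stayed above 0 and did not pass in any of the 13 other settings (0.72 to 1.04, 0.28 to 0.36 and 0.23 to 0.35, adjusted p 0.650 to 0.999 in limma), and leaving out 1 array gave 0.55 to 1.06, 0.21 to 0.38 and 0.10 to 0.46, with 0 probes called each time. The count at an unadjusted p under 0.05 was 748 with normexp against 333. The shift in the balance of the CPT1 forms was 0.40 to 0.76 in 12 settings and 0.34 to 0.74 with 1 array left out (exact permutation p 0.0635 to 0.302). The correlation of CPT1A with SLC25A20 was 0.88 to 0.97 in 8 settings and 0.70 to 0.96 with 1 array left out, and lost its call without cortisol replicate 1 (adjusted permutation p 0.110). That of CPT1A with CPT1B was 0.41 to 0.89 with 1 array left out, and no longer passed without cortisol replicate 1 (adjusted permutation p 0.402) or 5 (0.0564), or within slide 1 (0.74). That of CPT1B with SLC25A20 was 0.06 to 0.83 with 1 array left out and no longer passed in 8 of those 10 fits (adjusted permutation p 0.0529 to 0.879), all but those without control replicate 3 or 5. It also no longer passed with median scaling (0.67), within slide 1 (0.77) or with the other CPT1B probe (0.60). The median of the other fatty acid genes was 0.33 on slide 2 alone and 0.06 to 0.19 with 1 array left out. The causes were not tested. Same-numbered arrays did not deviate together throughout (r 0.22, -0.01, 0.15, 0.19 and 0.02), though 3 of 5 control arrays were closest to their own number. So few and weak values cannot settle whether the numbers pair the fetuses. With the replicate number as a block CPT1A had 0.86, CPT1B 0.31 and SLC25A20 0.32 (adjusted p 0.944 in limma), 0 probes were called (397 at an unadjusted p under 0.05), the balance shifted by 0.55 (exact permutation p 0.375) and the pathway median was 0.15.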

Other observations

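Markers of other cells of the ventricle, from lists of known markers, were read on the same arrays, and 0 of their tested probes passed in limma. Endothelial genes had 6 of 11 listed members tested, 4 higher and 2 lower with cortisol, with a median difference of 0.11. Fibroblast genes had 4 of 10 tested, 2 higher and 2 lower (median -0.02), leukocyte genes 2 of 10 (median -0.18) and liver cell genes 2 of 7 (median -0.45). Cardiac muscle genes had 3 of 15 tested (median -0.10), skeletal muscle genes 4 of 13 (median -0.15), fat cell genes 4 of 10 (median 0.20), smooth muscle genes 2 of 6 (median 0.67) and the red cell list 1 of 7, HBB, at 0.83 ± 0.87 (SE).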
